A study of Mus musculus with 44 samples.

Results

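The brush border and lipid absorption genes described here are 39 of the 29720 genes in the deposited count tables. They were chosen by name, as genes of the absorptive surface of the small intestine, and all 39 were matched by symbol to an Ensembl mouse gene. By role they are 11 digestive enzymes, 3 sugar transporters, 8 amino acid, peptide and anion transporters, 10 genes of lipid absorption and lipoprotein assembly, 2 chains of the cobalamin receptor, 3 genes of microvillus structure and 2 UNC93A genes. The mature enterocyte carries a dense carpet of microvilli, the brush border, whose membrane holds the enzymes that finish digestion and the transporters that take up the products. Behind that membrane the cell rebuilds triglyceride and packs it with apolipoprotein B into chylomicrons, while sterol pumps return cholesterol and plant sterols to the lumen. These genes are textbook marks of the small intestinal villus, and the colon carries few of them at a high level.

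Intestinal RNA of C57BL/6 mice was sequenced as 44 poly-A selected libraries from 2 models of inflammatory bowel disease. In the T cell transfer (TCT) model, all mice were Rag1 null hosts, which make no T or B cells of their own. Inflamed TCT mice received 400000 naive T cells and developed colitis within 8 to 12 weeks, and non-inflamed TCT mice received 200000 bulk T cells. In the TNFΔARE (TNF) model, inflamed mice were Tnf ΔARE/+ and non-inflamed mice were their Tnf +/+ littermates, and both were randomized at 16 weeks of age. The ΔARE allele deletes an AU-rich element that limits the life of Tnf mRNA and acts in every cell that makes it. Each of these 4 kinds of mice received either vehicle (methylcellulose and Tween20 in PBS) or ATI-450, an inhibitor of the stress kinase MK2, at 3 mg/kg. Mice were dosed again after 16 h and tissue was taken 90 min after the second dose, whereas the text on the series as a whole speaks of 24 h. The TCT groups held 6 inflamed vehicle, 6 inflamed inhibitor, 5 non-inflamed vehicle and 6 non-inflamed inhibitor libraries, and the TNF groups held 5, 6, 5 and 5. The labels give every tissue as intestine, and the protocol names distal colon and ileum without saying which library is which.

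The depth of a library was between 5.801 and 22.35 M counts, and levels below are counts per M (CPM), where M stands for 1e+06. Hoxb13, a homeobox gene active in the most distal bowel, was between 95.8 and 580.2 CPM in 22 of the 23 TCT libraries and at most 0.981 CPM in the TNF libraries. Fabp6 and Slc10a2, the bile acid carrier and bile acid transporter of the ileum, had means of 5057 and 1037 CPM in non-inflamed vehicle TNF libraries. TCT inflamed vehicle replicate 3 stood apart from its label's group, with Hoxb13 at 0.0708 CPM, the colonocyte gene Car1 at 0.425 CPM and Fabp6 at 5667 CPM. TCT inflamed vehicle replicate 1 held 28293 CPM of summed pancreatic acinar transcripts, and 4 further TCT libraries held from 372 to 8277 CPM of them. Alb, the liver albumin gene, had a mean of at most 1.51 CPM in every group. Epcam, an epithelial marker, was listed at or near 0 in every library (at most 0.461 CPM), although the summed epithelial markers were between 12651 and 31321 CPM. No sample label states which mouse a library came from, so p-values measure the spread between these samples. No 2 libraries of a model held identical counts.

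The proximal promoters of the 2 disaccharidase genes best known for enterocyte-specific transcription, Sis (sucrase-isomaltase) and Lct (lactase), are shown because both genes fell with inflammation in the TNF model, as did the other 9 enzymes. Each is the 250 bases before the annotated start on the gene's own strand, from RefSeq on GRCm38.p6. Capitals mark matches on either strand to short core motifs of factors that act in enterocytes.
Sis chr3:72967864-72968113 (- strand): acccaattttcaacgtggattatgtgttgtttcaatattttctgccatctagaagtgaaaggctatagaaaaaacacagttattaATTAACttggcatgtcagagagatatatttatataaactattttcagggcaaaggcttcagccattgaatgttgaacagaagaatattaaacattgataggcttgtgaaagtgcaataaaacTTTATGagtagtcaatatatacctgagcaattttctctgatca
Lct chr1:128328319-128328568 (- strand): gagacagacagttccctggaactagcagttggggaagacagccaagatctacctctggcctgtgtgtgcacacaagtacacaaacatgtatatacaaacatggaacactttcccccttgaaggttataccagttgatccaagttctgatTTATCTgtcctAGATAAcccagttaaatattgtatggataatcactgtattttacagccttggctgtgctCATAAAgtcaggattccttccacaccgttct
In Sis the capitals mark 1 match to GTTAAT, a half-site motif of homeodomain factors of the enterocyte, starting at position -165 from the start, and 1 to TTTATG, a motif of CDX factors, at position -43. In Lct they mark 2 matches to AGATAA, a motif of GATA factors, at positions -101 and -90, and 1 to TTTATG at position -31. Promoters were found in RefSeq for 32 of the 39 members and for 27025 genes in all. AGATAA was found in 6 of the 32 (18.8%) against 11.4% of all promoters, GTTAAT in 4 (12.5%) against 7.49%, and TTTATG in 3 (9.38%) against 12.4%. CAAAGTCCA, a motif of HNF4 factors, was found in 3 of the 32 (9.38%), those of Treh, Alpi and Slc3a1, against 0.451% of all promoters. A match describes letters in this window and is not evidence of binding.

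The module marked the TNF libraries. A score, the mean over the 39 genes of log2 CPM, was 8.94 ± 0.42 (SD, n = 5) in non-inflamed vehicle TNF libraries and 2.57 ± 0.16 (n = 5) in non-inflamed vehicle TCT libraries. The ranges were 8.26 to 9.36 and 2.40 to 2.79, so the groups were far apart. With the inhibitor the scores of non-inflamed mice were 8.91 ± 0.44 (n = 5) in the TNF model and 2.56 ± 0.19 (n = 6) in the TCT model. Inflamed TNF libraries scored 7.48 ± 0.31 (n = 5) with vehicle and 7.395 ± 0.209 (n = 6) with the inhibitor, and the highest of them, 7.81, lay below the lowest non-inflamed TNF library. Inflamed TCT libraries scored 1.99 ± 0.26 (n = 6) with the inhibitor and 3.66 ± 2.97 (n = 6) with vehicle. Without replicate 3, which alone scored 9.28, the inflamed vehicle TCT mean was 2.54 ± 1.25 (n = 5), and replicate 1 scored 4.75 within it. The 39 genes together took 3.58 to 6.56% of counts in non-inflamed TNF libraries, 2.00 to 2.89% in inflamed TNF libraries, 6.30% in TCT inflamed vehicle replicate 3 and 0.134 to 0.433% in the other TCT libraries.

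**Figure D1:**
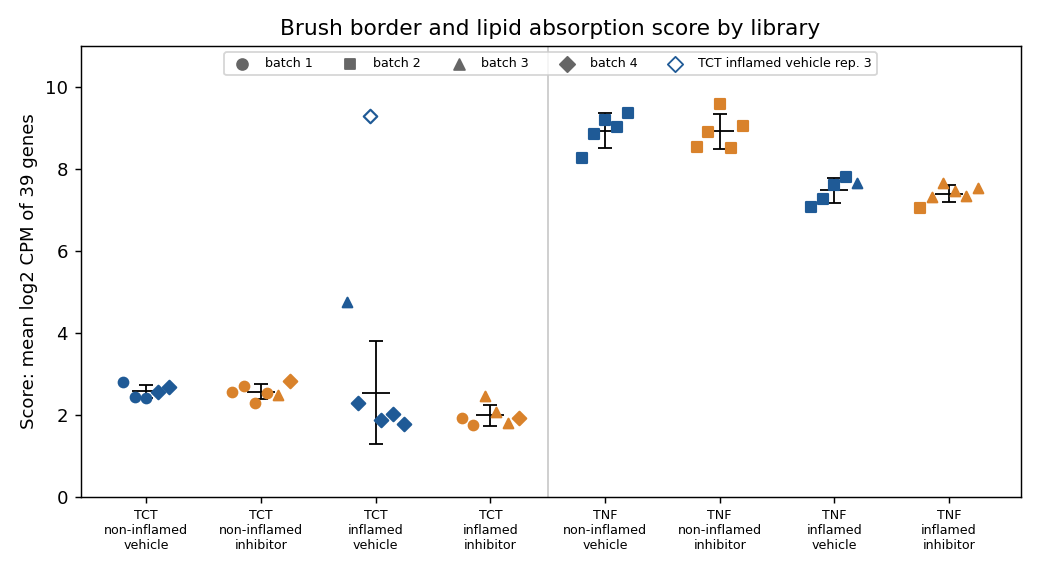
The score (mean log2 CPM of 39 genes, y axis) of each of 44 libraries by group, with marker shapes for the labels' batches, and black bars for the mean and SD of each group, which leave out the open diamond, TCT inflamed vehicle replicate 3. Non-inflamed TNF libraries sit between 8.26 and 9.57, inflamed TNF libraries between 7.05 and 7.81, and TCT libraries other than inflamed vehicle replicates 1 and 3 between 1.74 and 2.81.

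Lipid and peptide genes headed the order of levels in the ileal libraries. Per kb of exon in non-inflamed vehicle TNF libraries, Apoa1, the main protein of high-density lipoprotein, was highest at 7138 ± 3669 CPM per kb (SD, n = 5), and Fabp2, the intestinal fatty acid-binding protein, followed at 6584 ± 2416, a difference within their spread. Next came Anpep, aminopeptidase N, at 1740 ± 550.3 CPM per kb, then Naaladl1, a brush border peptidase, at 1175 ± 245, and Vil1, villin of the microvillus core, at 812 ± 161. Sis was the 11th in that order at 476.6 ± 118.9 CPM per kb and Lct the 32nd at 39.5 ± 28.5. The lowest were Unc93a2 at 9.30 ± 3.29, Unc93a at 2.99 ± 1.48 and Slc6a18, a neutral amino acid transporter, at 0.665 ± 0.358. Unc93a and Unc93a2 are related genes on the same chromosome (17), and how the authors' estimate divides reads between them is not given, so their separate levels are uncertain.

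In the non-inflamed vehicle TCT libraries the order was different. Cdhr5 and Cdhr2, cadherins that link microvillus tips, were at 221 ± 23.4 and 123 ± 30.4 CPM per kb, Vil1 at 219 ± 47.2, Fabp2 at 86.9 ± 76.9, and Mep1a, the alpha chain of the protease meprin, at 84.8 ± 39.7. Slc5a1, the sodium-glucose cotransporter, was at 55.9 ± 14.8 and Slc15a1, the peptide transporter, at 34.8 ± 15.9. Apoa1 and Anpep, the first and the third in the ileal order, were at 0.881 ± 1.42 and 3.12 ± 1.27 CPM per kb there. Slc5a12, a monocarboxylate transporter, was at 0.00302 ± 0.00675 CPM per kb, the lowest of the 39.

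Members differed in how steady they were among the 10 non-inflamed TNF libraries. Vil1 stayed between 2125 and 3506 CPM and Cdhr5 between 945 and 1801 CPM. Apoa4, an apolipoprotein of chylomicrons, ran from 165 to 2850 CPM, Cubn, the ligand-binding chain of the cobalamin receptor, from 141 to 1748 CPM, and Lct from 60.6 to 735 CPM. All 39 genes had counts in each of these 10 libraries.

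Between the models, every member was higher in non-inflamed vehicle TNF libraries than in non-inflamed vehicle TCT libraries, and the CPM ranges did not overlap for 39 of 39, against 11.1% of all genes tested. In an edgeR quasi-likelihood fit of all 44 libraries with batch as a term, 34 of the 39 were called higher and 0 lower (adjusted p under 0.05), where 6.8% of 15565 genes were called higher. Without TCT inflamed vehicle replicate 3, 36 were called higher, where 7.94% of genes were. The 39 were chosen as small intestinal genes with earlier results of these data known, so these counts are not an independent test. Within the TCT model only 29 passed the count filter, and the others entered this fit through the TNF libraries, where they were high. The median log2 difference of the members was 7.53, against 0.03 over all genes. Model, region, host and batch differ together between these groups and cannot be told apart. Batches 1 and 4 held only TCT and batch 2 only TNF libraries, and the batch terms of the 2 models were linked only through batch 3, in which neither of these groups has a library.

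The 7 members with the smallest p were transporters, enzymes and the cobalamin receptor. Slc6a20a, a proline transporter, was at 190.2, 235, 161, 153 and 324 CPM in the TNF libraries and at 4.97, 3.17, 7.88, 4.26 and 6.59 CPM in the TCT libraries (log2 difference 5.92 ± 1.04 SE, edgeR adjusted p = 0.000355). Slc13a1, a sulfate transporter, was at 466, 593, 743, 570.0 and 617 CPM against 0.858, 1.81, 3.34, 4.64 and 3.39 CPM (8.30 ± 1.63, adjusted p = 0.00107). Slc3a1, a chain of the cystine and dibasic amino acid transporter, was at 346, 439.7, 620.2, 706 and 554 CPM against 2.51, 5.74, 5.23, 20.8 and 15.4 CPM (6.22 ± 1.30, adjusted p = 0.00181). For these 3 transporters the lowest TNF library stood far above the highest TCT library.

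Anpep was at 5701, 8003, 9533, 4027 and 8719 CPM against 17.8, 12.7, 4.10, 14.4 and 15.4 CPM (8.97 ± 1.88, edgeR adjusted p = 0.00187). Cubn was at 556, 929, 512, 141 and 583 CPM against 0.49, 0.604, 0.504, 0.332 and 0.449 CPM (13.56 ± 2.86, adjusted p = 0.00195). The fitted values carry the batch terms and can exceed the ratio of the CPM. Slc6a19, the main neutral amino acid transporter of the brush border, was at 655, 978, 1131, 1341 and 1301 CPM against 1.72, 1.31, 1.13, 1.18 and 2.00 CPM (11.06 ± 2.37, adjusted p = 0.00222). Lct was at 60.6, 303, 285, 100.4 and 517 CPM against 0.0613, 0.403, 0.315, 0.237 and 0.15 CPM, the latter from 1 to 8 counts per library (11.54 ± 2.49, adjusted p = 0.00233). Cdhr5, Ace, Apoa4, Mep1a and Apob did not pass, at 1.40 ± 0.50 (adjusted p = 0.06), 3.19 ± 1.15 (0.0652), 11.12 ± 4.13 (0.0734), 3.23 ± 1.35 (0.117) and 3.27 ± 1.59 (0.183). Without the batch term all 39 were called higher, with a median of 6.25. The share of all genes called in that fit is not given here. Without the 5 inflamed TNF libraries with over 100 CPM of the colonocyte gene Car1, among them inflamed vehicle replicate 5, that group's only library of batch 3, 0 passed by edgeR and 35 had an unadjusted p under 0.05, with a median of 7.71; with all libraries DESeq2 called 38.

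**Figure D2:**
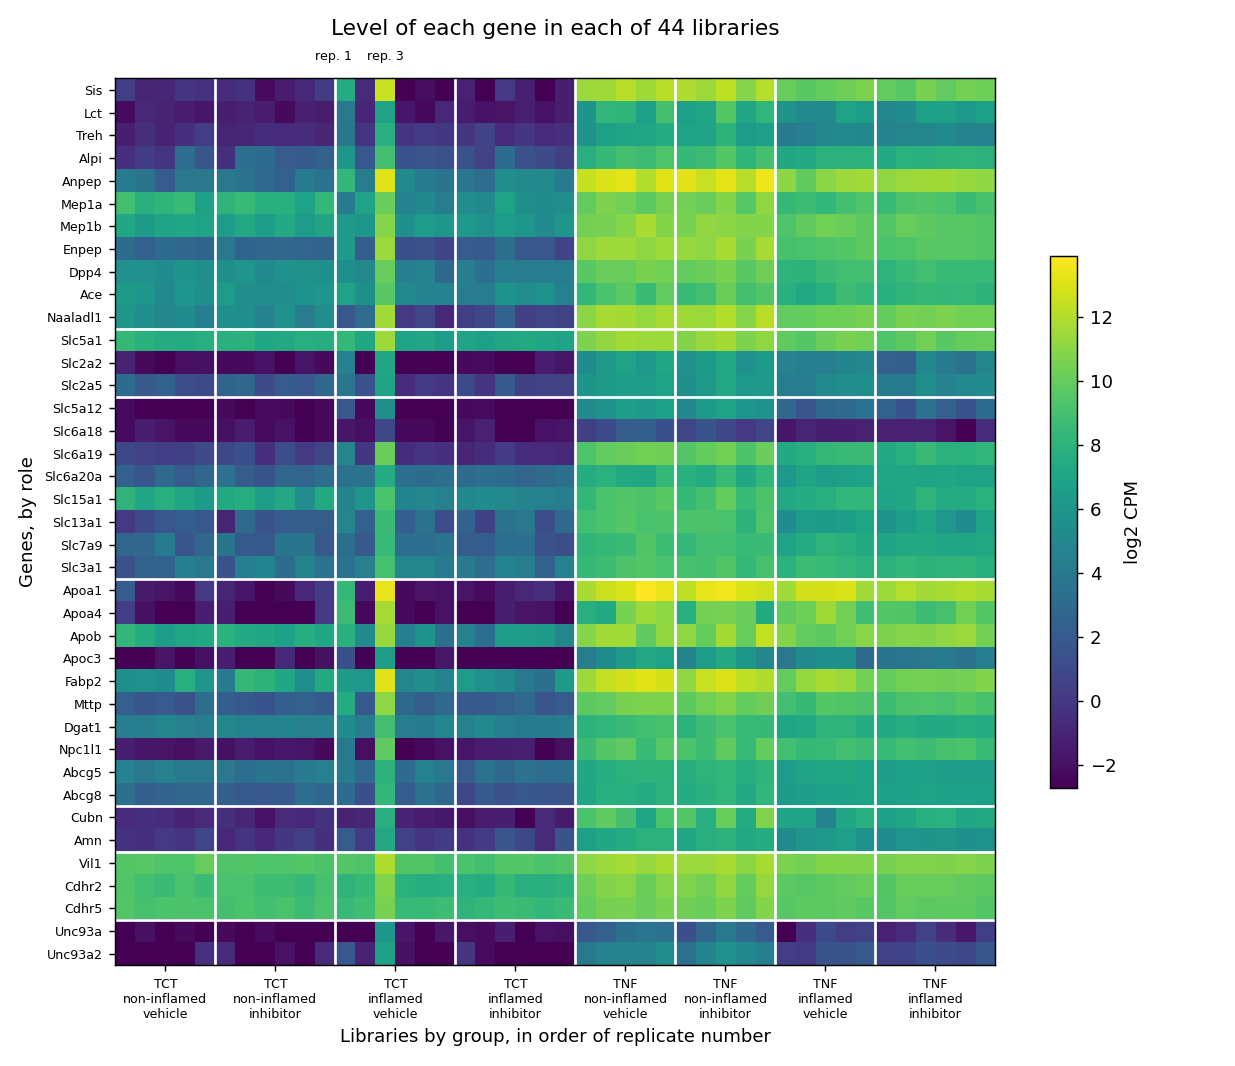
Log2 CPM (colour) of the 39 genes (rows, by role) in 44 libraries (columns, by group and replicate number). TNF libraries are bright for most genes. TCT libraries are bright mainly for Vil1, Cdhr2, Cdhr5, Mep1a, Mep1b, Slc5a1, Slc15a1 and Apob, and TCT inflamed vehicle replicate 3 looks like a TNF column.

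In the TNF model, inflammation went with lower levels of most of the module. Of the 39 members 34 fell and 0 rose with inflammation under vehicle (n = 5 and 5; edgeR, adjusted p under 0.05), where 6.94% of 14370 genes were lower. The median log2 change of the members was -1.41, against -0.02 over all genes, and CPM ranges did not overlap for 26 of 39, against 3.78% of genes. In whole tissue, fewer enterocytes and less of an mRNA per enterocyte cannot be told apart. All 11 enzymes (median -1.73), all 3 sugar transporters (-1.56), all 8 amino acid, peptide and anion transporters (-1.74), both cobalamin receptor chains (-1.92), all 3 microvillus genes (-0.83) and both UNC93A genes (-3.62) fell. Of the 10 lipid genes 5 fell, with a median of -0.90 over the 10.

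The enzymes that cleave peptides at the brush border fell together. Enpep, aminopeptidase A, was at 2277, 2825, 2814, 2254 and 2885 CPM in non-inflamed libraries and at 549.7, 574, 649.9, 749 and 885 CPM in inflamed ones (log2 change -2.03 ± 0.20 SE, edgeR adjusted p = 1.41e-06). Dpp4, dipeptidyl peptidase 4, was at 807, 1099, 1078, 1534 and 1309 CPM against 274, 261, 391, 463 and 467 CPM (-1.75 ± 0.20, adjusted p = 9.63e-06). Naaladl1 was at 2080.0, 3373, 3271, 2478 and 3436 CPM against 964, 1032, 1226, 1241 and 1465 CPM (-1.41 ± 0.21, adjusted p = 0.000125). In all 3 every inflamed library lay below every non-inflamed library.

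Mep1a was at 968, 1665, 1313, 898 and 1439.9 CPM in non-inflamed libraries against 333, 412, 309, 504 and 658 CPM (-1.67 ± 0.27, edgeR adjusted p = 0.000259). Anpep was at 5701, 8003, 9533, 4027 and 8719 CPM against 2086, 928, 2097, 2825 and 3176 CPM (-1.82 ± 0.31, adjusted p = 0.000518). Both groups were again apart, although non-inflamed replicate 4 was the lowest of its group in both genes. The other peptidases Mep1b, the beta chain of meprin, and Ace, angiotensin-converting enzyme, had log2 changes of -1.02 ± 0.24 and -1.26 ± 0.34 (edgeR adjusted p = 0.00671 and 0.0152).

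The disaccharidases fell as well. Sis was at 2774, 3020.0, 4491, 2945 and 4557 CPM in non-inflamed libraries and at 1088, 816, 1023, 1239 and 1622 CPM in inflamed ones (-1.73 ± 0.26, edgeR adjusted p = 0.000154). Treh, trehalase, was at 54.5, 105, 128, 143 and 181 CPM against 18.4, 21.7, 31.4, 37.9 and 31.9 CPM (-2.15 ± 0.32, adjusted p = 0.00013). Neither gene's groups overlapped. Lct changed by -2.09 ± 0.62 (adjusted p = 0.026), with overlap: inflamed replicate 4 at 121 CPM was above non-inflamed replicates 1 and 4. Alpi, intestinal alkaline phosphatase, which removes phosphate from bacterial lipopolysaccharide, had a log2 change of -1.06 ± 0.27 (adjusted p = 0.0101).

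Among transporters the sulfate carrier Slc13a1 had the smallest adjusted p. It was at 466, 593, 743, 570.0 and 617 CPM against 41.6, 88.4, 81.3, 94.2 and 134 CPM (-2.96 ± 0.32, edgeR adjusted p = 4.09e-06). Slc6a19 was at 655, 978, 1131, 1341 and 1301 CPM against 172, 210.3, 327, 356 and 387 CPM (-2.02 ± 0.26, adjusted p = 3.31e-05). Slc5a12 was at 38.6, 57.2, 98.3, 74.1 and 101 CPM against 6.99, 3.07, 7.09, 8.38 and 10.9 CPM (-3.48 ± 0.45, adjusted p = 3.54e-05). The highest inflamed library of each was under the lowest non-inflamed one. Slc6a18 was at 1.22, 1.87, 4.27, 4.91 and 2.42 CPM against 0.154, 0.341, 0.24, 0.243 and 0.282 CPM, the latter from 2 or 3 counts in each library (-3.49 ± 0.53, adjusted p = 0.000158).

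The sugar transporters Slc5a1, Slc2a5 (the fructose transporter GLUT5) and Slc2a2 (the basolateral glucose transporter GLUT2) changed by -1.299 ± 0.23, -1.56 ± 0.33 and -2.02 ± 0.46 (edgeR adjusted p = 0.000605, 0.00281 and 0.00462). Slc15a1 changed by -1.46 ± 0.30, and the 2 chains of the cystine transporter, Slc7a9 and Slc3a1, by -1.11 ± 0.22 and -0.74 ± 0.21 (adjusted p = 0.00211, 0.00188 and 0.0198). Slc6a20a changed by -1.04 ± 0.25 (adjusted p = 0.00674). Cubn and Amn, the membrane anchor of its receptor, changed by -2.32 ± 0.61 and -1.53 ± 0.27 (adjusted p = 0.0131 and 0.000613). Unc93a2 was at 15.7, 26.7, 25.3, 26.5 and 42.7 CPM against 1.08, 0.91, 2.88, 2.79 and 3.67 CPM, the steepest fall of the 39 (-3.83 ± 0.43, adjusted p = 6.97e-06). Unc93a changed by -3.41 ± 0.71 (adjusted p = 0.00237).

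Of the 10 lipid genes 5 passed the test. Fabp2 changed by -1.50 ± 0.37, Mttp, which loads lipid onto apolipoprotein B, by -1.26 ± 0.23, Dgat1, the last enzyme of triglyceride synthesis, by -0.92 ± 0.23, and Abcg5 and Abcg8, which pair into the sterol pump, by -0.87 ± 0.18 and -0.96 ± 0.18 (edgeR adjusted p = 0.00848, 0.000955, 0.01, 0.00182 and 0.000971). Apoa1, Apoa4, Apob, Apoc3 and Npc1l1 did not pass. The fitted changes of Apob and Apoc3 were of the size of those called for Dgat1 and Mttp, with larger errors, and no difference between lipid genes was tested. Apob was at 1874, 3142, 3167, 935 and 2401 CPM against 1803, 973, 882, 1349 and 1967 CPM (-0.86 ± 0.42, adjusted p = 0.206). Apoa1 was at 3665, 6231, 8019.8, 15519.6 and 10680.0 CPM against 3130.2, 7090.2, 7365, 8291 and 3181 CPM (-0.55 ± 0.35, adjusted p = 0.349).

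Apoa4 was at 223, 171, 1498, 2850.0 and 2167 CPM in non-inflamed and at 925, 1220.0, 3049, 1303 and 442 CPM in inflamed libraries, so the 2 groups covered much the same range (0.09 ± 0.72, 95% interval -1.41 to 1.59, edgeR adjusted p = 0.965). It was the only member with a positive fitted change. Apoc3, an inhibitor of lipoprotein lipase, and Npc1l1, the cholesterol uptake protein, had fitted changes of -1.29985 ± 0.55 and -0.65 ± 0.30 (adjusted p = 0.134 and 0.17). The 3 microvillus genes Vil1, Cdhr2 and Cdhr5 changed by -0.83 ± 0.16, -0.92 ± 0.22 and -0.66 ± 0.18 (adjusted p = 0.00142, 0.00714 and 0.0139).

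With the inhibitor the same comparison, inflamed against non-inflamed TNF libraries (n = 6 and 5), gave 30 members lower and 0 higher by edgeR, where 4.37% of genes were lower. CPM ranges did not overlap for 32 of 39, against 10.2% of genes. Only 1 of the 6 inflamed inhibitor libraries shares batch 2 with all 10 non-inflamed libraries, and in that batch alone 0 members passed by edgeR (30 had an unadjusted p under 0.05), while 36 of 39 passed with no batch term. Without that library, inflamed inhibitor replicate 1, 13 members were lower, and DESeq2 called 34 with all libraries. Enpep was at 582 (lowest), 729 (median) and 815 CPM (highest) in inflamed libraries against 2572, 2205, 3361, 1508 and 3385 CPM (-2.21 ± 0.26, adjusted p = 2.19e-05). Slc13a1 was at 41.0, 85.8 and 133 CPM against 586, 631, 570.1, 261 and 640.4 CPM (-3.31 ± 0.42, adjusted p = 4.68e-05), and Unc93a2 at 1.28, 1.86 and 3.13 CPM against 11.2, 27.9, 52.8, 32.3 and 21.7 CPM (-4.60 ± 0.60, adjusted p = 5.93e-05). In each of the 3 the inflamed and non-inflamed libraries were apart.

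Dpp4, Slc6a19 and Slc5a12 came next, at -2.05 ± 0.28, -2.40 ± 0.36 and -3.93 ± 0.60 (edgeR adjusted p = 9.42e-05, 0.000248 and 0.000277). The 9 members that did not pass were Fabp2 (-1.80 ± 0.58, adjusted p = 0.0508), Ace (-1.45 ± 0.47, 0.0513), Slc6a20a (-0.996 ± 0.33, 0.0564), Slc3a1 (-0.83 ± 0.30, 0.0851) and, as with vehicle, Npc1l1, Apoa1, Apob, Apoc3 and Apoa4, whose changes lay between -1.43 and 0.54. The vehicle and inhibitor comparisons share no library, but they come from the same fit. That fit shares its estimate of the spread and its batch term, so the 2 results are not independent.

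**Figure D3:**
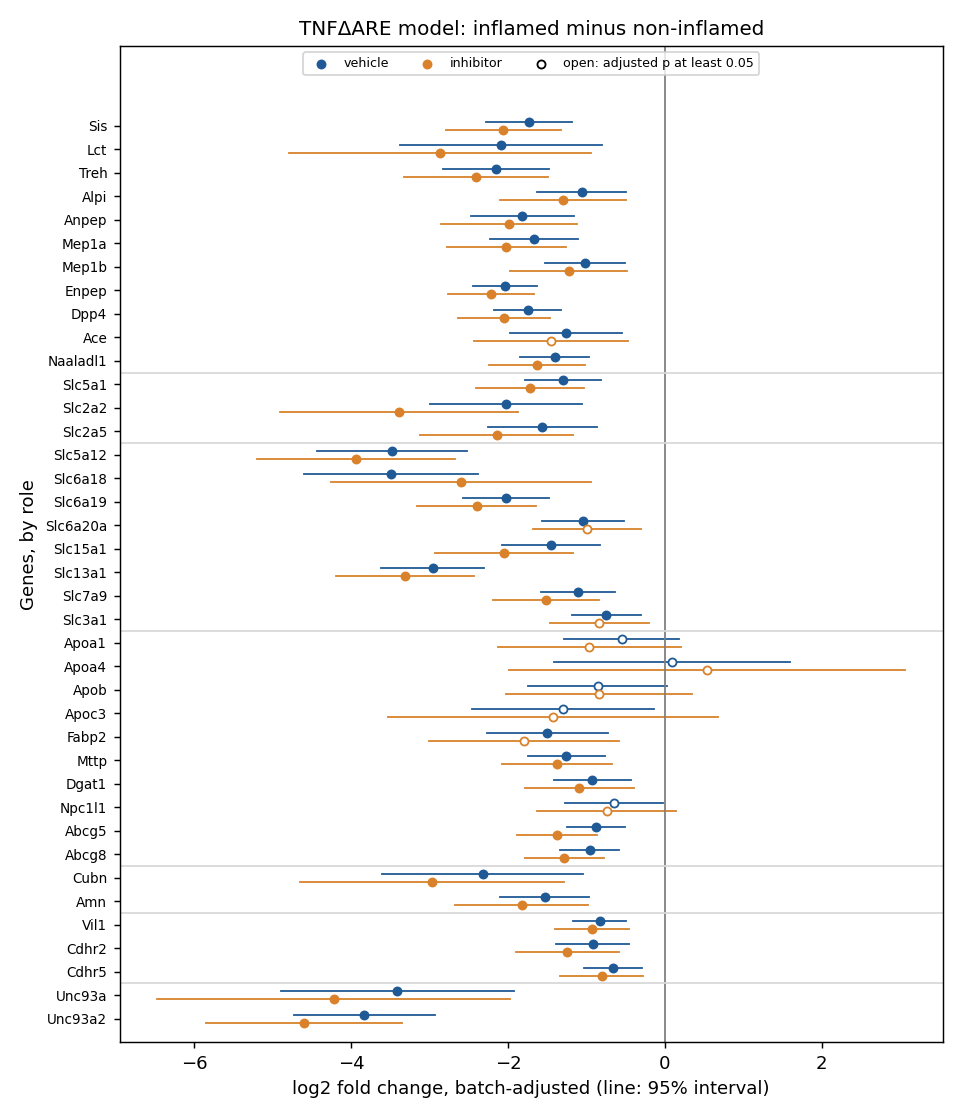
Batch-adjusted log2 fold change (x axis) of each of the 39 genes (y axis, by role) between inflamed and non-inflamed TNF libraries, with vehicle (blue) and with the inhibitor (orange), with lines for 95% intervals and open symbols where the edgeR adjusted p is at least 0.05. All points but those of Apoa4 lie left of 0, and the apolipoproteins and Npc1l1 are the genes with open symbols under both treatments.

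Other markers moved in the same TNF libraries. Summed neutrophil markers were 80.8 to 269 CPM in inflamed and 1.96 to 3.81 CPM in non-inflamed vehicle libraries, and 5 of 5 tested were higher. Summed epithelial markers overlapped (14993 to 26618 against 15558 to 31321 CPM, 2 of 11 tested higher and 0 lower). Summed ileal bile acid genes were 2346 to 4560 against 5628 to 9778 CPM, with 3 of 5 lower and 1 higher, and Slc10a2 and Fabp6 had log2 changes of -1.89 ± 0.28 and -1.08 ± 0.25 (edgeR adjusted p = 0.000132 and 0.00596). Of the other lists, 1 of 7 Paneth markers was lower, 0 of 7 goblet, 0 of 5 stem cell and 0 of 9 smooth muscle markers changed, and 4 of 10 colonocyte markers were higher and 2 lower.

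Car1 was at 793, 8.42, 446, 1.21 and 279 CPM in inflamed vehicle TNF libraries against at most 2.75 CPM in non-inflamed ones, and Aqp8, a water channel of colonocytes, was at 18.2, 0, 13.7, 0 and 4.79 CPM against at most 0.0761 CPM. Both genes were high in replicates 1, 3 and 5 and low in replicates 2 and 4. Without the 5 inflamed TNF libraries (3 vehicle and 2 inhibitor) whose Car1 exceeded 100 CPM, a choice made after the data were seen, 17 of 39 members were lower and 0 higher with vehicle, where 1.67% of genes were lower, and 12 were lower and 0 higher with the inhibitor, where 0.83% of genes were lower. With fewer libraries in that fit the members' median log2 change was -1.21 with vehicle and -1.85 with the inhibitor, and all 39 fitted changes were negative in both. The part of these markers in the members' change was not tested.

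Genes beside the 39 on the same surface and in the same pathways were read as companion lists. In the vehicle comparison of the TNF model 4 of 6 tested enzymes and enzyme partners were lower, led by Xpnpep2, a membrane aminopeptidase, at -2.34 ± 0.29, and Ggt1, gamma-glutamyltransferase, at -1.90 ± 0.26 (edgeR adjusted p = 2.17e-05 and 5.45e-05). Of 12 other solute transporters 6 were lower and 1 higher, led by Slc23a1, a vitamin C transporter, at -2.01 ± 0.56 and Slc7a8, an amino acid exchanger, at -1.65 ± 0.38 (adjusted p = 0.0183 and 0.00462). Of 10 genes of the microvillus core and tip 5 were lower and 0 higher, led by Ezr, ezrin, which ties actin to the membrane, at -1.14 ± 0.17 and Pls1, an actin bundler, at -0.98 ± 0.16 (adjusted p = 0.000157 and 0.000344). Of 14 other lipid genes 4 were lower, led by Mogat2, of monoacylglycerol re-esterification, at -1.29 ± 0.29 and Slc27a4, a fatty acid transport protein, at -1.13 ± 0.23 (adjusted p = 0.00392 and 0.00204). Of 16 enterocyte transcription factors 4 were lower and 1 higher, led by Hnf4g at -1.38 ± 0.23 and Maf at -0.89 ± 0.21 (adjusted p = 0.000373 and 0.0068).

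In the TCT model the result of inflammation turned on 1 library. Of the 39 members 29 passed the count filter, and 10 stayed below it: Lct, Slc2a2, Slc5a12, Slc6a18, Apoa4, Apoc3, Npc1l1, Cubn, Unc93a and Unc93a2. With all libraries, 8 of the 29 rose and 0 fell with inflammation under vehicle (n = 6 inflamed, 5 non-inflamed) by edgeR, where 6.95% of 15317 genes were higher. Without replicate 3, 0 were higher and 8 lower, where 9.04% of 15293 genes were lower, and the share of members lower was 8 of 29. The median change of the 29 was 2.75 with that library and -0.30 without it.

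The 8 genes called with all libraries were high in replicate 3 and, at a lower level, in replicate 1. Sis was at 6008 CPM in replicate 3 and 182 CPM in replicate 1, and at 0.468, 0, 0.0849 and 0 CPM in replicates 2, 4, 5 and 6, against 0.352 to 1.16 CPM in non-inflamed libraries (10.11 ± 3.03, edgeR adjusted p = 0.0344). Anpep was at 316, 19.9, 8714, 36.1, 17.0 and 12.8 CPM in replicates 1 to 6 against 4.10 to 17.8 CPM (6.53 ± 1.85, adjusted p = 0.0265), and Mttp at 187, 3.47, 2229.6, 7.41, 4.46 and 7.73 CPM against 2.51 to 9.09 CPM (6.22 ± 1.66, adjusted p = 0.02). Treh, Slc6a19, Alpi, Slc6a20a and Enpep followed the same pattern at 5.96 ± 1.57, 6.96 ± 2.10, 4.71 ± 1.47, 2.75 ± 0.87 and 6.18 ± 1.99 (adjusted p = 0.019, 0.0356, 0.041, 0.0445 and 0.0477), with replicate 3 at 221, 1161, 489, 192 and 2686 CPM. Genes below the filter read alike in replicate 3, with Apoa4 at 3415 CPM, Cubn at 210.0 CPM and Unc93a at 64.5 CPM. In replicate 1 Apoa1 was at 323 CPM and Apoa4 at 422 CPM, but Cubn was at 0.319 CPM and Unc93a at 0.

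**Figure D4:**
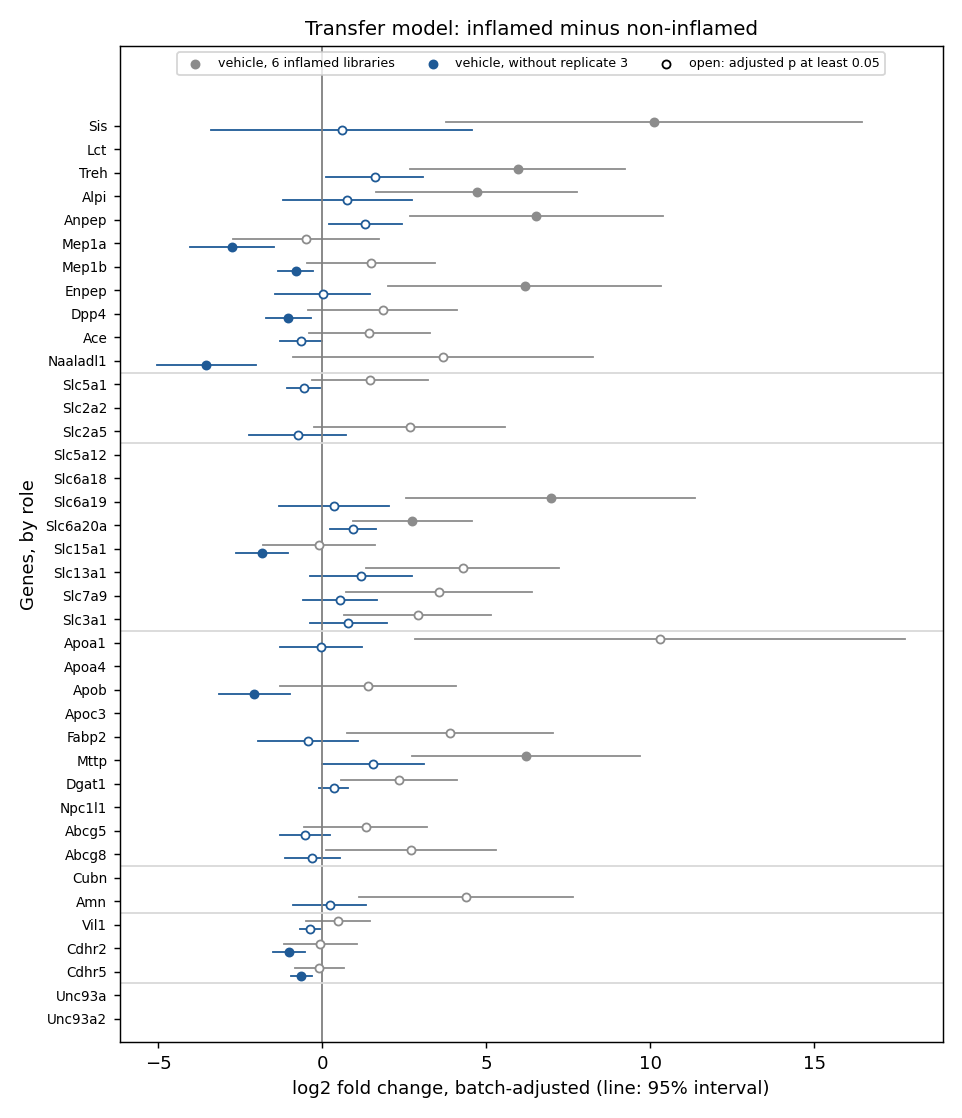
Batch-adjusted log2 fold change (x axis) of the 29 tested genes (y axis, by role) between inflamed and non-inflamed vehicle TCT libraries, with all 6 inflamed libraries (grey) and without replicate 3 (blue), with lines for 95% intervals, open symbols where the edgeR adjusted p is at least 0.05, and empty rows for the 10 genes below the count filter. The 8 filled grey points lie right of 0 and the 8 filled blue points left of it.

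Without replicate 3, the members that fell were ones with a sizeable level in the non-inflamed TCT libraries. Members near 0 there had little room to be called lower. Not all members with a high level fell: Vil1, Fabp2 and Slc5a1 did not pass, at -0.37 ± 0.14, -0.42 ± 0.73 and -0.56 ± 0.24 (edgeR adjusted p = 0.0756, 0.706 and 0.107). Naaladl1 was at 65.0, 43.9, 29.6, 41.3 and 20.7 CPM in non-inflamed libraries and at 3.51, 9.41, 0.895, 1.57 and 0.386 CPM in inflamed ones (-3.52 ± 0.71, edgeR adjusted p = 0.00327). Slc15a1 was at 280.3, 133, 215, 139.6 and 82.9 CPM against 27.7, 65.6, 27.7, 31.9 and 23.2 CPM (-1.83 ± 0.38, adjusted p = 0.00369). Mep1a was at 474, 226, 291, 362 and 111 CPM against 17.5, 123, 25.8, 33.4 and 19.1 CPM (-2.76 ± 0.61, adjusted p = 0.00553). Naaladl1 and Slc15a1 did not overlap between the groups, and for Mep1a inflamed replicate 2 lay above non-inflamed replicate 7.

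Cdhr2 was at 693, 474, 397, 569.6 and 401 CPM against 275, 343, 241, 199 and 208 CPM (-1.01 ± 0.24, edgeR adjusted p = 0.00719), and Cdhr5 at 710.4, 551, 595, 614 and 558 CPM against 372, 443, 367, 383 and 427 CPM (-0.63 ± 0.15, adjusted p = 0.00754). Neither cadherin's groups overlapped. Apob was at 308, 188, 85.9, 132 and 167 CPM against 228, 38.9, 21.2, 59.4 and 10.8 CPM (-2.07 ± 0.51, adjusted p = 0.0105), with replicate 1 the highest inflamed library. Mep1b was at 146, 83.0, 129.8, 134 and 119 CPM against 73.6, 66.1, 50.5, 85.3 and 69.3 CPM (-0.81 ± 0.25, adjusted p = 0.0325), and Dpp4 at 52.4, 52.7, 40.8, 58.6 and 45.3 CPM against 48.1, 34.3, 21.1, 25.1 and 7.12 CPM (-1.02 ± 0.32, adjusted p = 0.035). In these 3 genes the highest inflamed library lay within the non-inflamed range. Over the 29, CPM ranges without replicate 3 did not overlap for 4 lower members, against 5.5% of genes, and for 1 higher member, against 7.27% of genes. The higher member was Slc6a20a, which did not pass (0.94 ± 0.33, edgeR adjusted p = 0.0514).

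These calls did not hold in every fit. The 8 higher calls with all libraries became 5 without inflamed replicate 1, and 4, 3, 5, 0 and 2 without non-inflamed replicates 1, 2, 4, 6 and 7. Without replicate 3 and the 5 further TCT libraries with over 100 CPM of summed pancreatic markers, 2 of 30 tested members were lower, Apob at -2.74 and Naaladl1 at -3.26. DESeq2 and limma on the deposited normalized signal, both with replicate 3, called 0 members, and limma-voom with quality weights, also with it, called 6 lower and 1 higher.

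With the inhibitor, the inflamed (n = 6) and non-inflamed (n = 6) TCT libraries do not include replicate 3, but it enters the shared estimate of the spread and the batch terms. With it 0 of 29 members passed by edgeR (1 had an unadjusted p under 0.05; DESeq2 called 1 and limma-voom 15), where 22.6% of genes passed. Without it 14 of 29 were lower and 0 higher, where 14% of genes were lower, and the median change was -0.97. CPM ranges did not overlap for 5 lower members, against 6.03% of genes. Markers of other cells moved in the same comparison. Without replicate 3, 7 of 12 colonocyte, 1 of 5 distal position, 3 of 7 goblet and 8 of 9 smooth muscle markers were lower and 0 of each higher, 6 of 6 neutrophil and 6 of 6 T cell markers were higher, and 2 of 11 epithelial markers were higher and 0 lower. Summed colonocyte markers were at 1285 to 2732 CPM in inflamed and 3966 to 9519 CPM in non-inflamed inhibitor libraries, and summed neutrophil markers at 155 to 986 and 1.53 to 79.5 CPM. Of 10 pancreatic markers 3 were higher: their sum was 2007, 6595 and 8277 CPM in 3 of the inflamed inhibitor libraries and at most 1.05 CPM in the other 3, against at most 2.18 CPM in the non-inflamed ones. The part of these markers in the members' change was not tested.

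Naaladl1 was at 1.14 (lowest), 1.43 (median) and 5.72 CPM (highest) in inflamed and at 18.8, 46.2 and 57.1 CPM in non-inflamed libraries (-4.37 ± 0.72, edgeR adjusted p = 0.000288 without TCT inflamed vehicle replicate 3). Dpp4 was at 10.02, 20.5 and 21.1 CPM against 38.6, 50.8 and 61.3 CPM (-1.58 ± 0.29, adjusted p = 0.000724), and Apob at 9.84, 52.2 and 91.5 CPM against 112, 163 and 244 CPM (-2.63 ± 0.49, adjusted p = 0.000752). Slc15a1 was at 19.7, 29.5 and 41.9 CPM against 43.7, 165 and 198 CPM (-1.89 ± 0.36, adjusted p = 0.000837). None of these 4 overlapped between the groups. The others called were Cdhr2, Ace, Cdhr5, Mep1b, Slc5a1, Mep1a, Slc2a5, Slc6a19, Abcg8 and Enpep, with changes from -2.26 to -0.55.

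Other markers moved in the TCT vehicle comparison too. Without replicate 3, 6 of 12 colonocyte markers, 3 of 5 markers of distal position, 3 of 7 goblet and 6 of 9 smooth muscle markers were lower and 0 of each higher, and 6 of 6 neutrophil and 5 of 6 T cell markers were higher. The epithelial markers had 1 of 11 higher and 0 lower. Summed pancreatic markers were 28293 CPM in replicate 1, 372 CPM in replicate 5 and at most 1.38 CPM in replicates 2, 4 and 6 of the inflamed vehicle group, against at most 8.29 CPM in the non-inflamed vehicle group, and their part in the members' change was not tested. Of the companion lists, 4 of 10 microvillus genes were lower (Myo7b, a tip-link myosin, -0.85 ± 0.24, and Anks4b, a scaffold of the tip complex, -0.79 ± 0.14; edgeR adjusted p = 0.0212 and 0.00141), and 4 of 13 lipid genes were higher (Soat2, of cholesterol esterification, 2.40 ± 0.53, and Pla2g12b, 2.18 ± 0.31; adjusted p = 0.00502 and 0.000466). Of 9 solute transporters 1 was higher (Slc28a2, a nucleoside transporter, 2.54 ± 0.46) and 4 lower (Slc36a1, a proton-coupled amino acid transporter, -1.51 ± 0.39; adjusted p = 0.00172 and 0.0129), of 16 transcription factors 1 was higher (Maf, 0.77 ± 0.23; adjusted p = 0.025) and 2 lower, and 0 of 4 enzymes and partners passed.

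With replicate 3 the companion lists gave other counts. Of 13 lipid genes 6 were higher and 0 lower, led by Prap1 at 6.73 ± 1.69 and Mogat2 at 5.60 ± 1.47 (edgeR adjusted p = 0.0155 and 0.019), and of 4 enzymes and partners 1 was higher, Ggt1 at 4.87 ± 1.48 (adjusted p = 0.0368). Of 11 solute transporters 3 were higher and 2 lower, led by Pdzk1 at 6.57 ± 2.07 and Slc28a2 at 4.61 ± 1.03 (adjusted p = 0.0434 and 0.00883). Of 16 transcription factors 3 were higher and 1 lower, led by Gata4 at 5.51 ± 1.57 and Creb3l3 at 4.37 ± 1.29 (adjusted p = 0.0273 and 0.032), and 0 of 10 microvillus genes passed.

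The difference between the models in the effect of inflammation was tested directly, as the TCT change minus the TNF change with vehicle in the fit of 44 libraries. With all libraries 24 of 39 members differed, all with the TCT change higher, where 2.83% of genes did. Without TCT inflamed vehicle replicate 3 the number was 8, where 2.01% of genes did. The 8 were Slc13a1 (4.13 ± 0.79, edgeR adjusted p = 0.00149), Treh (3.68 ± 0.71, 0.00165), Slc5a12 (9.05 ± 1.77, 0.00188), Anpep (3.14 ± 0.63, 0.00247), Slc6a20a (1.98 ± 0.41, 0.00334), Dgat1 (1.26 ± 0.32, 0.018), Mttp (2.78 ± 0.75, 0.0272) and Slc6a18 (3.65 ± 1.03, 0.0449). Of these 8, Slc5a12 and Slc6a18 were below the count filter within the TCT model and the other 6 did not pass there without replicate 3. Cdhr2, Cdhr5 and Mep1b were among the members that fell in both models without replicate 3. They had differences of -0.09 ± 0.34, 0.02 ± 0.23 and 0.20 ± 0.35 (95% intervals -0.78 to 0.59, -0.45 to 0.49 and -0.52 to 0.92). Naaladl1, Mep1a, Slc15a1 and Dpp4 also fell in both. Their differences were not among the 8, and the sizes of these are not given here. Without the 5 TCT libraries with pancreatic transcripts as well, 4 members differed, and without non-inflamed vehicle TCT replicate 6 alone 15 did. Without the 5 inflamed TNF libraries with over 100 CPM of Car1, 1 did.

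The inhibitor changed no member past the threshold. In inflamed TNF libraries (n = 6 and 5) 0 of 39 passed by edgeR, 1 had an unadjusted p under 0.05, and DESeq2 and limma-voom also called 0, where 0% of genes passed. The median change was -0.22. Of the inhibitor libraries 1 was of batch 2 and 5 of batch 3, and of the vehicle libraries 4 and 1. Treatment thus went largely with batch, and only few libraries tell them apart. Slc2a2 had the smallest p: it was at 4.95 (lowest), 14.4 (median) and 33.5 CPM (highest) with the inhibitor and at 25.7, 21.6, 21.0, 27.4 and 33.0 CPM with vehicle (-1.45 ± 0.63, 95% interval -2.77 to -0.13, edgeR adjusted p = 0.996). The groups overlapped, with 4 of the 6 inhibitor libraries under the lowest vehicle library. Slc5a1, Slc15a1, Slc6a19 and Abcg5 came next, at -0.57 ± 0.28, -0.66 ± 0.36, -0.53 ± 0.31 and -0.35 ± 0.21. Over the 39, intervals reached from -3.04 to 2.12, so changes of up to that size could not be told from 0 for the least precise members, whereas for Vil1 the interval was -0.51 to 0.32.

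In non-inflamed TNF libraries, all of batch 2 (n = 5 and 5), 0 of 39 passed by edgeR or DESeq2 and 0 had an unadjusted p under 0.05, where 0% of genes passed by edgeR. The median change was -0.01. The 5 members with the smallest p were Slc6a18 (-0.80 ± 0.42), Abcg8 (0.27 ± 0.17), Slc6a20a (0.25 ± 0.24), Apoa4 (-0.66 ± 0.71) and Cubn (0.51 ± 0.56). Sis was at 4015, 2866, 5254, 1883 and 4204 CPM with the inhibitor against 2774, 3020.0, 4491, 2945 and 4557 CPM with vehicle, with wide overlap (0.03 ± 0.25, 95% interval -0.48 to 0.55). The interaction of inflammation and inhibitor in the TNF model had 0 members called and 0 with an unadjusted p under 0.05, where 0% of genes passed.

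**Figure D5:**
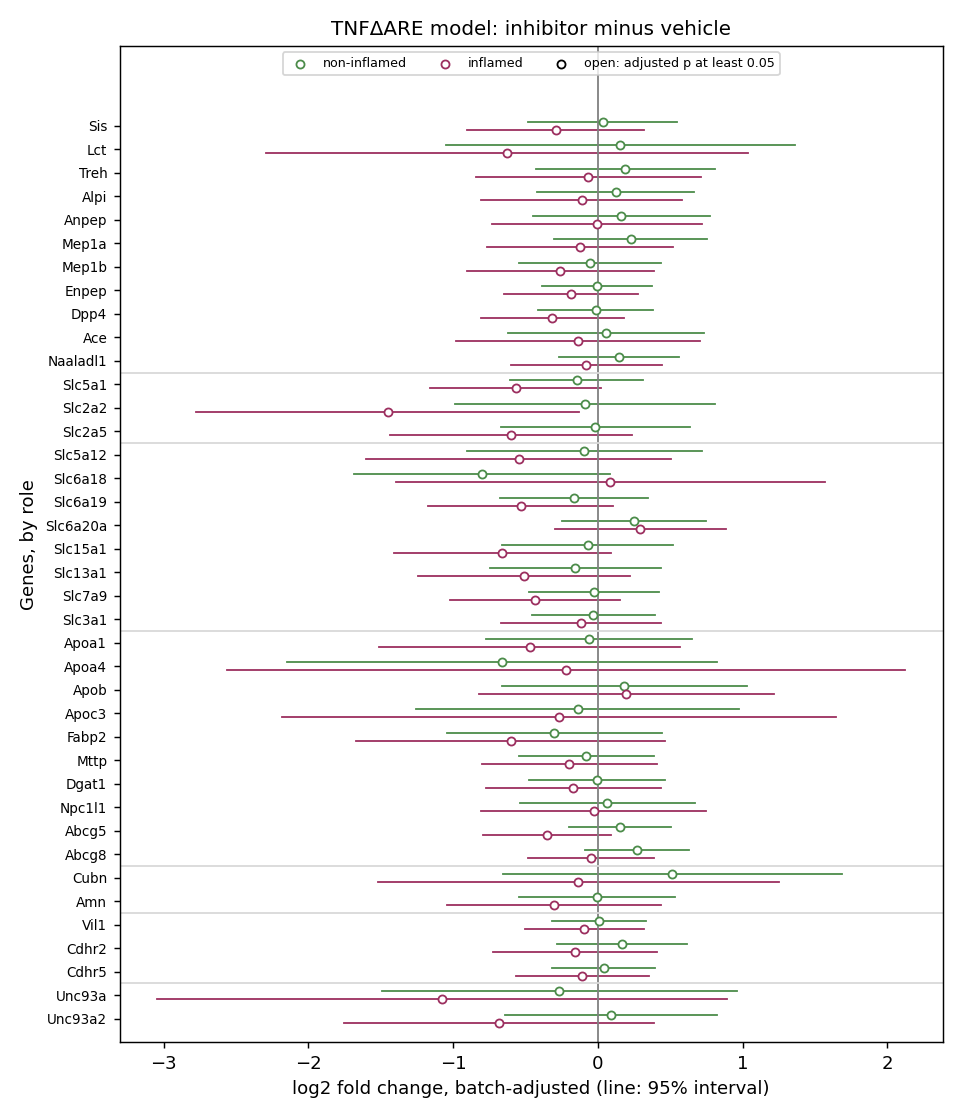
Batch-adjusted log2 fold change (x axis) of the 39 genes (y axis, by role) between inhibitor and vehicle TNF libraries, non-inflamed (green) and inflamed (purple), with lines for 95% intervals. Every symbol is open, for an edgeR adjusted p of at least 0.05, and all intervals but that of Slc2a2 in inflamed mice include 0.

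In the TCT model the inhibitor comparisons also had 0 of 29 members called by edgeR and by DESeq2. Batches were uneven over the inflamed groups. The inhibitor libraries were 2 of batch 1, 3 of batch 3 and 1 of batch 4, and the vehicle libraries 1 of batch 3 and 5 of batch 4. In inflamed libraries (n = 6 and 6) 0.00653% of genes passed by edgeR adjusted p with all vehicle libraries and 0% without replicate 3. At an unadjusted p under 0.05, 21 and 12 members did, and the share of all genes at that threshold is not given here. With all libraries the 5 with the smallest p were Mttp, Apoa1, Sis, Slc6a19 and Treh, at -6.25, -12.46, -11.16, -8.00 and -5.15 (edgeR adjusted p = 0.998). Without replicate 3 they were Slc6a19, Apoa1, Mttp, Anpep and Enpep, at -2.88 ± 0.74, -6.91 ± 1.82, -2.51 ± 0.68, -1.52 ± 0.47 and -1.88 ± 0.58 (edgeR adjusted p = 1 for each). Vehicle replicate 1 held the highest remaining vehicle value of each, Slc6a19 at 28.4, Apoa1 at 323, Mttp at 187, Anpep at 316 and Enpep at 72.8 CPM, where the inhibitor libraries reached at most 1.02, 0.595, 7.58, 42.7 and 10.4 CPM. That library is also the only inflamed vehicle one of batch 3, and its part in these values was not tested. In non-inflamed libraries (n = 6 and 5) 0 members with all libraries and 1 without replicate 3 had an unadjusted p under 0.05, and 0% of genes passed either way. The 1 member was Slc3a1, at 1.23 ± 0.55 (unadjusted p = 0.0381, edgeR adjusted p = 1). With all libraries the 5 with the smallest p were Slc3a1 (1.43 ± 0.97), Fabp2 (1.66 ± 1.31), Alpi (1.54 ± 1.43), Apoa1 (-1.73 ± 2.43) and Slc13a1 (0.79 ± 1.15). The interaction had 0 members and 0% of genes called with or without replicate 3. At an unadjusted p under 0.05 it had 20 members, and 2 without replicate 3, again without the share of all genes.

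Genes outside the 39 whose log2 CPM followed the score most closely were named by Pearson's r as a description, since the libraries share groups, batches and tissue. Over the 21 TNF libraries they included Slc47a1 (0.984), Slc5a11 (0.982), Lpin3 (0.981) and Slc7a15 (0.981). Over the 22 TCT libraries without inflamed vehicle replicate 3 they included the Paneth cell defensin Defa30 (0.846), Fabp1, the liver-type fatty acid-binding protein also made in enterocytes (0.843), Tkfc (0.837) and the defensin Defa31 (0.831).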

How the data were processed

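The authors deposited 1 table per model of estimated counts per Ensembl gene, made with Salmon 0.14.1 on mm10 (GRCm38) per the submitters' processing notes, and a table of normalized signal, for which the notes name DESeq2 without a version. Estimated counts were rounded and tested with edgeR 4.0.16 in R 4.3.3: quasi-likelihood F-tests, two-sided, robust, TMM scaling, group plus the labels' batch, filterByExpr by group, Benjamini-Hochberg adjustment over all genes, threshold 0.05. SE is the absolute log2 fold change divided by the square root of F. Each model was fitted over its 4 groups, and comparisons between models over all 44 libraries. CPM used TMM over 44 libraries, and the score a prior count of 2. Grouping the count filter by sample group was decided after first results were seen, and filtering on the full design is given as an added alternative. DESeq2 1.42.0, limma 3.58.1 (voom, and log2(signal + 1)), other scalings, filters and sample sets were alternatives. Where an alternative is given without the share of all genes passing, its member count cannot be set against a background. Without replicate 3 of the inflamed vehicle TCT group, every TCT value was refitted. Code was tested on simulated data. Gene names matched 29395 of 29720 identifiers. The 39 members and the lists of other genes were chosen with earlier results of these data known. In each comparison at most 12 called members with the smallest p, or 5 where none passed, have values by library; of each list of other genes, the called genes with the 2 largest changes are named. Reads carry no molecular identifiers, so errors from counting alone would be too small. Exon lengths come from GENCODE on GRCm38 and promoters from RefSeq on GRCm38.p6. Some genes that the naming rules would pick are not reported here.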

Additional observations from a re-analysis of the deposited data

Results flagged for a closer look

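Single libraries far from the others of their group were sought on log2 CPM with Dixon's test for each of the 39 genes in each of the 8 groups. Of 312 such sets 34 (10.9%) held one, where chance gives about 1 in 20. TCT inflamed vehicle replicate 3 accounted for 17, all high: Fabp2 at 9051 CPM, Vil1 at 3869, Naaladl1 at 3104, Mep1b at 1896, Cdhr2 at 1751, Cdhr5 at 1548, Slc15a1 at 591, Slc3a1 at 539, Dgat1 at 508, Slc7a9 at 373, Abcg8 at 315, Abcg5 at 261, Cubn at 210.0, Slc6a20a at 192, Amn at 158, Unc93a at 64.5 and Slc6a18 at 1.70 CPM. The microvillus and transport genes are thus among those in which this library stood apart. The flags in all other libraries together came close to the share that chance gives, and they are listed below only as a description.

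In the inflamed inhibitor TCT group, replicate 3 was high in Mep1a (125 CPM), Alpi (8.39 CPM), Naaladl1 (5.72 CPM) and Slc6a19 (1.02 CPM), replicate 1 in Unc93a2 (0.757 CPM), and replicate 2 was low in Dpp4 (10.02 CPM). Replicate 3 of that group also held 8277 CPM of summed pancreatic markers, whose part in these values was not tested. In the non-inflamed inhibitor TCT group, replicate 1 was apart in Enpep (15.0 CPM), Alpi (0.608 CPM) and Slc13a1 (0.355 CPM), and replicate 4 in Lct (0.0562 CPM). In the non-inflamed vehicle TCT group, replicate 6 was apart in Fabp2 (216 CPM), replicate 4 in Anpep (4.10 CPM), replicate 7 in Unc93a2 (0.649 CPM) and replicate 1 in Slc5a12 (0.0613 CPM). The flagged values of Lct and Slc5a12 lie at the floor of the counts, where very few reads decide whether a library is apart. In the TNF model, non-inflamed inhibitor replicate 4 was low in Slc13a1 (261 CPM), and inflamed inhibitor replicates 1 and 4 were apart in Alpi (172 CPM) and Treh (37.8 CPM).

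By the interaction term in edgeR, the effect of inflammation with vehicle differed between the models for 24 members with all libraries, all with the TCT change higher, where 2.83% of genes did. Without TCT inflamed vehicle replicate 3 the number was 8, where 2.01% of genes did. The values below are from the fit with that library, and the members outside those 8 did not pass without it. With all libraries the differences (TCT minus TNF, log2) of the enzymes were 11.80 for Sis, 8.64 for Lct, 8.32 for Anpep, 8.19 for Enpep, 8.09 for Treh and 5.74 for Alpi. Those of the transporters were 12.92 for Slc5a12, 9.87 for Slc2a2, 8.95 for Slc6a19, 7.22 for Slc13a1, 5.91 for Slc6a18, 4.65 for Slc7a9, 3.78 for Slc6a20a and 3.64 for Slc3a1. Those of the lipid genes were 10.78 for Apoa1, 10.58 for Npc1l1, 9.90 for Apoc3, 7.46 for Mttp, 5.36 for Fabp2 and 3.24 for Dgat1. The cobalamin receptor chains differed by 8.19 (Cubn) and 5.91 (Amn), and Unc93a and Unc93a2 by 11.12 and 10.82. Lct, Slc2a2, Slc5a12, Slc6a18, Apoc3, Npc1l1, Cubn, Unc93a and Unc93a2 were below the count filter within the TCT model. These genes entered this fit through the TNF libraries, where they were higher, so their differences cannot be read as support for an effect in the TCT model.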

How the results depend on the processing

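The fall of the members in inflamed vehicle TNF libraries kept its direction in every fit run: 34 lower became 24 to 36 under the alternatives other than leaving out the 5 libraries with Car1 above 100 CPM (17), and 32 to 34 when single libraries were left out. With the inhibitor, 30 lower became 12 without those 5 libraries, 0 with the replicate block (25 with an unadjusted p under 0.05) and 0 in the single batch, and 13 to 33 when single libraries were left out, the lowest without inflamed inhibitor replicate 1. For inflamed vehicle TCT libraries, 8 higher became 0 with DESeq2, with the deposited normalized signal, with the compared groups alone and in the single batch, 5 with no count filter and 16 with no batch term. It turned to 7 with limma-voom (6 lower, 1 higher), 2 lower without 6 TCT libraries and 3 lower with the replicate block. Leaving out single libraries gave 0 to 12, and leaving out replicate 3 gave 8 lower, or 8 lower and 1 higher (9) with the full-design filter. With the inhibitor, 0 in the TCT model became 1 with DESeq2, 15 with limma-voom, 1 with no batch term, 2 with the normalized signal, 11 without 6 libraries, 14 with the compared groups alone, 13 with the replicate block, 8 in the single batch, and 0 to 16 when single libraries were left out. The difference between models in non-inflamed mice, 34, became 0 without the 5 Car1 libraries and 30 to 36 when single libraries were left out. The difference in the effect of inflammation, 24, became 11 with limma-voom, 4 without 6 TCT libraries, 1 without the 5 Car1 libraries, and 8 to 29 when single libraries were left out.

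In the vehicle comparison of the TCT model, single genes changed sign. Without 6 libraries Sis was at -2.45, Alpi at -0.68, Enpep at -1.07, Naaladl1 at -3.26, Slc6a19 at -1.17 and Apob at -2.74. With the replicate block Alpi was at -1.94, Anpep at -0.22, Enpep at -2.29, Dpp4 at -3.09, Slc6a19 at -1.01, Apob at -3.66 and Fabp2 at -3.03. With limma-voom Naaladl1 was at -4.02 and Apob at -1.83, and without replicate 3, under either count filter, Naaladl1 was at -3.52, Apob at -2.07, Dpp4 at -1.02 and Mep1b at -0.81. Leaving out other single libraries took these 4 as high as 4.17, 1.73, 2.15 and 1.79, each without replicate 1. In the difference of the inflammation effect, Sis was at -0.61, Slc2a2 at -1.46, Apoa1 at -2.38 and Npc1l1 at -0.19 without 6 libraries, and Naaladl1 at -2.67 with limma-voom. The labels do not state that replicate numbers pair samples, and the main fits did not pair them. In no comparison did every pair of same-numbered libraries deviate together with a correlation over 0.1, which cannot exclude pairing. For the inhibitor in non-inflamed TCT mice 3 of 4 pairs did (median 0.323), and 3 matched best with their own number. Those pairs also share a batch, so pairing and batch cannot be told apart there. Medians of the other comparisons were between -0.0663 and 0.0609. With a prior count of 0.5 the mean score was 1.60, 2.22 and 2.23 in the inflamed inhibitor, non-inflamed inhibitor and non-inflamed vehicle TCT groups. In non-inflamed vehicle TNF libraries it was 8.93, against 8.94 with a prior count of 2. A smaller prior count lowers the log2 CPM of genes near 0 by construction. The cause of the changes of sign given above was not tested. The inhibitor comparisons and interactions had 0 members called in every fit. Over single genes and alternatives, 461 of 10535 values lost and 224 gained a call, and 28 were counted as reversed. The others kept their side of the threshold. Values called in neither fit could still change sign, and how many did is not given here. Low counts limit Slc6a18, Unc93a and Unc93a2 in inflamed TNF libraries and the 10 members below the count filter in the TCT model.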
